A study of Rattus norvegicus with 22 samples.

Results

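Clenbuterol and X-rays, 2 treatments given to rats after a contusion of the spinal cord, were compared directly through the gene expression of the injured cord. All arrays titled for either treatment were used, 2 for clenbuterol and 3 for X-rays, which is 5 of the 22 arrays in the series. Every rat in both groups received the same contusion, a 10 g weight with a tip of 2.5 mm that fell 25 mm onto the cord at thoracic level 10. The clenbuterol group was injected intraperitoneally 20 min after the injury at a dose labelled 150 mg/kg, whose unit could not be checked here. The X-ray group was irradiated 20 min after the injury to a total of 10 Gy with a 6 MV beam. The cord was taken 24 h after the contusion, after 10 min of perfusion with buffered saline. Also in the series are 2 arrays of contused cord without treatment, 9 of contused cord after tempol, buthionine sulfoximine (BSO) or both, and 6 of cord without contusion (3 normal, 3 after laminectomy). The labels name no strain, age or sex and do not say whether each array is a separate animal. The errors thus measure the spread between arrays within the groups of the series, which may be technical. Tissue pieces hold many cell types, and in them fewer cells of a type and less RNA per cell cannot be told apart.

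Clenbuterol is a beta-adrenergic agonist. Receptors of this family couple through Gs to adenylyl cyclase, and cyclic AMP then activates protein kinase A and the transcription factor CREB. X-rays break DNA, activate p53 and its target genes, and are most toxic to dividing cells and lymphocytes. A contused cord meanwhile loses neurons and oligodendrocytes and fills with neutrophils and then with macrophages from the blood, so that the comparison asks how cord tissue in this early inflammatory phase differed between a receptor agonist and radiation.

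Each array reads 31042 probe sets besides the controls, as a linear intensity that was taken to log2. In all that follows a difference is the mean log2 intensity of the clenbuterol arrays minus that of the X-ray arrays, with its standard error (SE, n = 2 and 3) after ±, so that 1 is a 2-fold difference and a positive value is higher with clenbuterol. Where intensities are listed, the values of clenbuterol 1 and 2 precede those of X-ray 1, 2 and 3. Intensities of different probe sets have no common scale, so levels are compared only between arrays and never between genes. The cord identity of the 5 arrays was plain from the myelin gene Mbp, at 27050.4 to 54757.9, the astrocyte filament Gfap, at 12424.5 to 20095.2, and the synaptic gene Snap25, at 2334.6 to 3909.8. The files give no detection call, so no gene can be called absent.

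No probe set differed between clenbuterol and X-ray at an adjusted p under 0.05 in limma, which is 0% of those tested, and the smallest adjusted p was 0.175. At an unadjusted p under 0.05 there were 1190 probe sets or 3.83%, of which 553 were higher and 637 lower with clenbuterol, where 1552.1 would be met by chance alone. Leaving out clenbuterol 1 let 2 probe sets pass, and leaving out clenbuterol 2 also let 2 pass, all of them lower with clenbuterol. The median SE was 0.757. With 2 arrays against 3 an exact permutation test of a single gene cannot go below p = 0.1. The sections below therefore describe values, and no gene in them passed the test unless it is said to have done so. The adjusted p of every gene named is 1 where none is given.

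For the description by gene, each of 14217 genes was read through its probe set with the highest mean. Of these genes 505 or 3.55% had an unadjusted p under 0.05. Both clenbuterol arrays lay above all X-ray arrays in 1364 genes (9.59%) and below all of them in 1680 (11.8%), and the mean was higher with clenbuterol in 48.5%. The median difference over all genes was -0.02. The counts of each gene list are to be read against these shares. The lists and their members were chosen with earlier results of these data known, so the counts and the order of the lists are a description and not a test.

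The arrays of the groups did not form separate sets. Over all probe sets clenbuterol 1 and clenbuterol 2 had the lowest rank correlation of the 10 pairs (0.759), below every pair of a clenbuterol with an X-ray array (0.766 to 0.813), while the X-ray arrays correlated with each other at 0.813 to 0.844. The 3 prime to 5 prime ratio of the GAPDH control, a measure of RNA integrity, was 0.02 and -0.20 on the log2 scale in the clenbuterol arrays and 0.65, 0.32 and 0.23 in the X-ray arrays. The groups did not overlap in it, and its part in any difference below was not tested. The same ratio of actin overlapped, with 0.47 and 0.51 against 0.61, 0.47 and 0.55. Some stress genes split the clenbuterol arrays. The inducible heat shock protein gene Hspa1a read 7953.3 and 586.3 against 1061.8, 1243.6 and 889.2.

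**Figure D1:**
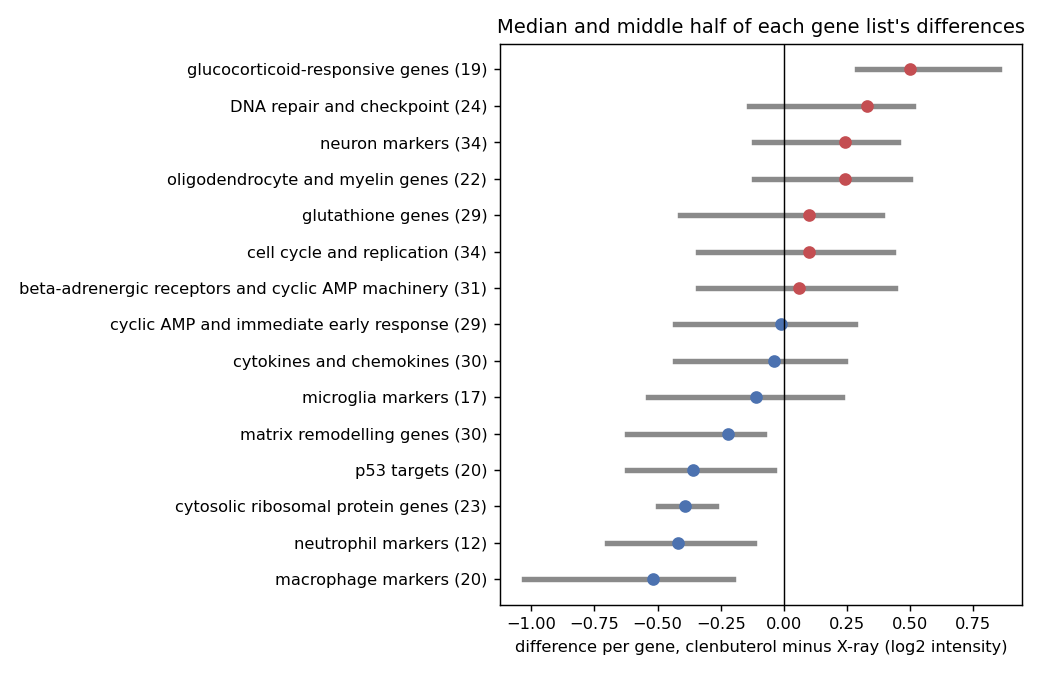
Difference between clenbuterol and X-ray arrays (x axis, log2 intensity) for the genes of 15 lists, with the number of genes in brackets. Dots are the list medians and bars run from the lower to the upper quartile of the genes; glucocorticoid-responsive genes lie farthest right, at 0.50, and macrophage markers farthest left, at -0.52.

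Among the 39 gene lists, which were not chosen blind to these data, genes that respond to glucocorticoids stood highest in the clenbuterol arrays. Glucocorticoid hormone from the adrenal gland binds its receptor in the cytosol, which moves into the nucleus and induces a small set of genes in most tissues, several of which also answer to cyclic AMP. Of the 19 measured genes 16 were higher with clenbuterol and 3 lower, the median difference was 0.50 against -0.02 over all genes, and 7 of 19 lay above every X-ray array where 9.59% of all genes did. Without clenbuterol 1 the median was 0.28. Cyclic AMP acts on genes through a DNA element, TGACGTCA, and the promoters of 3 of those 7 genes, picked after their values were seen, are shown because they hold this element, its short form alone, or neither. They run from 250 bases before to 50 after the start of transcription and come from RefSeq on the GRCr8 assembly. Capitals mark every match to TGACG or its reverse complement CGTCA, the shorter form of that element, in the positions chr10:17184603-17184902 for Dusp1, chr1:230126396-230126695 for Klf9 and chr10:54304126-54304425 for Per1, all on the plus strand.
Dusp1: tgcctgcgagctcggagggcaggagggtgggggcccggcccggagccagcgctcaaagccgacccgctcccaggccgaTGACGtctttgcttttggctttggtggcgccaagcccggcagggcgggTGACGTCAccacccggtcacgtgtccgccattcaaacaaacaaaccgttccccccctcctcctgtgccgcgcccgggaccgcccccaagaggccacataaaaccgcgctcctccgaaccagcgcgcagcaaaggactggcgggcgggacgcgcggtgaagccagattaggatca
Klf9: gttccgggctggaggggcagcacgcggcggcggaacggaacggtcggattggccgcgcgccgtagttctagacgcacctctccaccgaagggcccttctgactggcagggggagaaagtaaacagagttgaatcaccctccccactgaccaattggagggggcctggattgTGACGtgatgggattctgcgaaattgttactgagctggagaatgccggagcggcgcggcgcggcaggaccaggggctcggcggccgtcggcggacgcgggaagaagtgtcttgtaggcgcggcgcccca
Per1: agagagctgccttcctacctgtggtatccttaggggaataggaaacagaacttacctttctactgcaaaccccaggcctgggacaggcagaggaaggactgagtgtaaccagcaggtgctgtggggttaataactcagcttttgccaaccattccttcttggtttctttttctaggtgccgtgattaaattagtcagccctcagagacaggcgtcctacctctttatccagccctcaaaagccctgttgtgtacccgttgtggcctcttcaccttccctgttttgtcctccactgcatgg
Dusp1 held 3 matches to the short form, of which 2 overlap within 1 full element, Klf9 held 1, and Per1 held none in this window. Over the list, 18 of 19 genes had a promoter in the tables and together had 23, of which 7 or 30.4% held the short form on either strand, against 21.2% of 33365 rat promoters. The full element was in 1 of the 23 and in 1.83% of all. The half-site of the glucocorticoid receptor, TGTTCT or AGAACA, was in 1 of 23 (4.35%), that of Sult1a1, and in 20.6% of all. These matches describe letters in a short window and show no binding. Cebpd, the list's member without an entry, is named only.

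Klf9, a zinc finger transcription factor induced by glucocorticoids in brain, read 795.5 and 730.1 against 286.0, 340.9 and 263.7. Both clenbuterol arrays lay above all X-ray arrays, above contusion alone (411.2 and 401.5) and above all 6 arrays without contusion (264.9 to 453.7), for a difference of 1.37 ± 0.40 (95% interval 0.52 to 2.21). Dimmer probe sets of Klf9 gave 0.21 and -0.57, so its probe sets disagreed. The clock gene Per1, which responds to cyclic AMP as well as to glucocorticoids, read 200.4 and 867.1 against 110.6, 103.4 and 113.7, a difference of 1.93 ± 0.62. Here the clenbuterol arrays were far apart, though both were above the X-ray arrays and above contusion alone (107.0 and 57.7). Clenbuterol 1 lay within the range of the arrays without contusion (60.6 to 413.8). Tsc22d3, which encodes the anti-inflammatory protein GILZ, read 647.5 and 482.3 against 333.4, 227.5 and 324.8 (0.94 ± 0.43).

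The phosphatase gene Dusp1, which switches off stress kinases, read 1134.9 and 769.1 against 554.2, 393.3 and 639.1, a difference of 0.85 ± 0.47 that its dimmer probe set shared (0.60 ± 0.51). All 5 arrays exceeded the highest array without contusion (341.7). Pdk4, the kinase that restrains the use of glucose, gave 0.95 ± 0.85, the sulfotransferase Sult1a1 gave 0.84 ± 0.46 and the metallothionein Mt1 gave 0.53 ± 0.78, each with both clenbuterol arrays above the X-ray arrays. For Pdk4 they were also above contusion alone. For Sult1a1 (533.2 and 529.3) and Mt1 (204.9 and 162.8) they lay between the contusion arrays, at 346.1 and 577.6 and at 100.4 and 267.0. The 3 lower members were the cell cycle inhibitor Cdkn1a (-0.60 ± 1.20), the NF-kappa-B inhibitor Nfkbia (-0.04 ± 0.82) and glutamine synthetase, Glul (-0.01 ± 0.51). Cdkn1a split the clenbuterol arrays, at 3469.9 and 441.7 against 1280.4, 1921.1 and 2712.3.

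**Figure D2:**
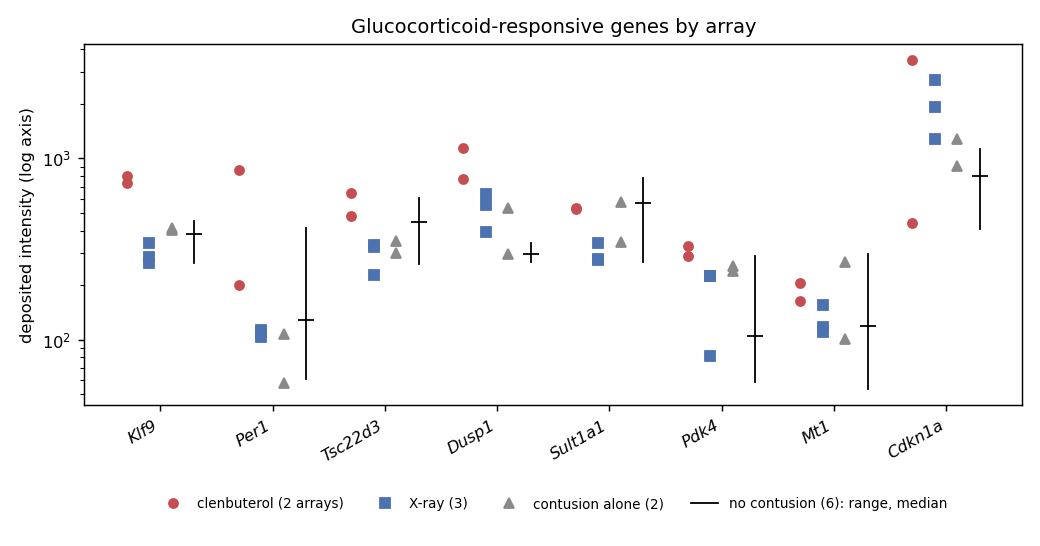
Deposited intensity (y axis, log scale) of 8 glucocorticoid-responsive genes in the clenbuterol, X-ray and contusion arrays, 1 point per array, with a line from the lowest to the highest of the 6 arrays without contusion and a tick at their median. For Klf9 the clenbuterol points, 795.5 and 730.1, stand above all others, while for Cdkn1a they lie at both ends, 3469.9 and 441.7.

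Genes of the cyclic AMP pathway itself showed no common direction. Of 29 genes of the cyclic AMP and immediate early response, 14 were higher and 15 lower with clenbuterol, with a median of -0.01, and 4 lay above and 2 below all X-ray arrays. Sik1, a kinase induced through CREB that feeds back on it, read 128.4 and 606.0 against 741.6, 495.9 and 739.4, and its difference of -1.22 ± 0.76 ran against the direction of Per1. The nuclear receptor Nr4a1, another CREB target, read 210.8 and 591.9 against 279.1, 575.3 and 278.3 (-0.01 ± 0.78, 95% interval -1.64 to 1.63). Fos differed by 0.22 ± 0.93 and the cyclic AMP modulator Crem by 0.14 ± 0.46. In both the arrays overlapped.

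Receptors and signalling enzymes were likewise mixed, with 18 of 31 genes higher, 13 lower and a median of 0.06. At the receptor level Adrb1, the beta-1 receptor, read 99.4 and 104.9 against 172.0, 157.2 and 122.3 (-0.54 ± 0.77), with contusion alone at 108.4 and 47.6. Grk2, the kinase that desensitizes these receptors, read 378.7 and 226.6 against 230.5, 64.6 and 64.9, a difference of 1.57 ± 0.64. Its X-ray arrays all lay below contusion alone (279.7 and 271.9), and its clenbuterol arrays on either side. Arrb1, an arrestin that uncouples active receptors, gave 763.2 and 697.6 against 351.7, 175.6 and 513.2 (1.21 ± 0.65), but its other probe set gave -1.16. Among the enzymes, the cyclase Adcy4 was dim in every array, at 9.7 and 11.1 against 65.7, 77.7 and 25.4 (-2.29 ± 0.89), and the phosphodiesterase Pde3a, which degrades cyclic AMP, differed by -1.20 ± 0.56. Both lay below all X-ray arrays. The regulatory subunit gene Prkar1a of protein kinase A read 2132.4 and 1849.0 against 1236.6, 1447.9 and 1476.0 (0.52 ± 0.52), with -0.18 and -0.28 at its dimmer probe sets. For Creb1, the transcription factor itself, the brightest probe set gave -0.56 ± 0.62 and another 2.54 ± 0.61 (limma, adjusted p = 0.981), so no direction can be given for that gene.

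Targets of p53 were mostly lower with clenbuterol than with X-rays. Against contusion alone their medians were close, at 0.21 for clenbuterol and 0.30 for X-ray. Of 20 measured genes 15 were lower and 5 higher, the median was -0.36, and 5 lay below all X-ray arrays and 1 above. Without clenbuterol 1 the median was -0.16. Ccng1, cyclin G1, a direct p53 target, read 894.3 and 535.5 against 1489.7, 1346.3 and 1553.4, for a difference of -1.08 ± 0.61 (95% interval -2.35 to 0.20). The X-ray arrays of Ccng1 were above contusion alone (588.3 and 450.7) and above every array without contusion (87.6 to 475.3). Both clenbuterol arrays were also above every array without contusion, and clenbuterol 1 was above both contusion arrays. Mdm2, the ligase that degrades p53, read 1292.6 and 897.9 against 1359.2, 1654.4 and 1617.5 (-0.51 ± 0.42), with contusion alone at 1346.6 and 1265.8. Its dimmer probe sets gave -0.46 and 0.74.

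Among the other p53 targets Aen, a nuclease of apoptosis, read 21.8 and 164.8 against 241.4, 281.3 and 329.6 (-2.23 ± 0.78), with contusion alone as high as X-ray, at 348.5 and 240.9. The epoxide hydrolase Ephx1 differed by -1.20 ± 0.80 and the death receptor Fas by -0.45 ± 0.55, both below all X-ray arrays, though the other probe sets of Fas gave -1.71 and 0.74. For Ephx1 contusion alone, at 519.4 and 426.5, was above all X-ray arrays (204.1 to 360.3). The stress cytokine Gdf15 differed by -1.37 ± 0.81 with overlapping arrays. The 5 higher members were the damage sensor Ddb2 (0.04), Perp (0.57), Zmat3 (0.61), Sesn1 (0.64) and the stress gene Gadd45a (0.83), and of these only Perp lay above all X-ray arrays while its other probe set gave -1.78. Per array, the list level of the p53 targets, which is the median over genes of log2 intensity minus the gene's mean over the 22 arrays, was 0.38 and 0.20 against 0.49, 0.45 and 0.25, so the groups overlapped. Contusion alone was at 0.37 and -0.04.

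DNA repair and checkpoint genes leaned the other way, with 15 of 24 higher with clenbuterol and a median of 0.33, which was 0.04 without clenbuterol 2. Rad50, part of the complex that senses double strand breaks, read 291.9 and 163.6 against 65.8, 38.7 and 140.9 (1.62 ± 0.62). Xrcc3, which acts in recombination repair, is not on the list and not in these counts. It read 29.8 and 31.4 against 124.3, 139.5 and 179.7 (-2.26 ± 0.63), and contusion alone stood with X-ray, at 197.6 and 201.9. The break sensor Parp1 read 1744.5 and 1307.7 against 2244.1, 2009.0 and 2423.7 (-0.56 ± 0.40), all 5 above contusion alone (1103.3 and 1221.1).

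Dividing cells are the classic target of radiation. Of 34 cell cycle and replication genes 20 were higher and 14 lower, the median was 0.10, and 4 lay above and 4 below all X-ray arrays. The list level was -0.12 and -0.13 against -0.40, -0.31 and -0.19, so the groups did not overlap. All 5 arrays lay below the 11 other contused arrays, which ran from 0.00 to 0.44, and the median difference was 0.02 without X-ray 1 and 0.22 without clenbuterol 1. Mki67, which marks cycling cells, read 105.6 and 25.2 against 31.2, 57.6 and 59.5, a difference of 0.12 ± 0.81 whose 95% interval of -1.58 to 1.82 leaves room for a 2-fold difference either way. Top2a, the replication topoisomerase, differed by -0.45 ± 0.71, and its other probe set by 0.51. The mitotic cyclin Ccnb2 read 188.0 and 134.9 against 106.3, 63.3 and 88.7 (0.92 ± 0.55), and Birc5, which acts in cell division, read 30.9 and 119.4 against 27.4, 24.7 and 30.9 and overlapped (1.14 ± 0.57). The G1 cyclin Ccnd2 read 341.5 and 744.8 against 833.9, 867.7 and 851.7 (-0.75 ± 0.45), and Ccnd3 differed by -1.73 ± 0.69.

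Macrophage markers were the list that stood lowest with clenbuterol. Of 20 measured genes 18 were lower and 2 higher, the median was -0.52, and 9 of 20 lay below every X-ray array where 11.8% of all genes did. The 2 higher genes were the lysosomal protease Ctsd (0.19 ± 0.86) and the haemoglobin receptor Cd163 (0.39 ± 1.01), both with overlapping arrays. The list level was -0.08 and -0.30 against 0.59, 0.40 and 0.50, with contusion alone at 0.54 and 0.65. The clenbuterol arrays thus lay below X-ray and below contusion alone, within the range of the 6 arrays without contusion (-1.09 to 0.24).

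Spp1, osteopontin, which activated macrophages secrete, read 833.3 and 651.3 against 3480.5, 1358.4 and 2083.5, for a difference of -1.54 ± 0.46 (95% interval -2.49 to -0.59). Gpnmb, a glycoprotein of lipid-laden phagocytes, read 454.2 and 838.3 against 2033.5, 1531.5 and 1683.0 (-1.49 ± 0.54). Lyz2, lysozyme of myeloid cells, read 5421.6 and 5692.8 against 11080.0, 11156.7 and 12287.2 (-1.05 ± 0.41, 95% interval -1.90 to -0.19). In all 3 genes contusion alone was above both clenbuterol arrays, at 2615.9 and 2465.0 for Spp1, 3715.4 and 2240.4 for Gpnmb, and 10504.0 and 10837.5 for Lyz2.

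The same order was seen in the Fc receptor gene Fcgr2b, at 243.3 and 116.8 against 661.7, 672.4 and 549.3 (-1.89 ± 0.90). It was also seen in Arg1, arginase of alternatively activated macrophages, at 326.7 and 224.1 against 469.2, 502.1 and 698.2 (-1.02 ± 0.52). Contusion alone gave 894.6 and 778.4 for Arg1. The cathepsin gene Ctsb also lay below all X-ray arrays (-0.57 ± 0.49), but its contusion arrays, at 2514.3 and 1778.7, stood on either side of clenbuterol. The lysosomal marker Cd68 had another order. It was low in both treatments, at 106.3 and 69.1 against 278.6, 93.3 and 84.3, where contusion alone had 669.1 and 364.8, and its difference was -0.60 ± 0.88 with overlapping arrays.

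Microglia, the resident phagocytes of the cord, share many of these genes, and their list was nearly balanced, with 8 of 17 higher, 9 lower and a median of -0.11. Of its members 4 lay below all X-ray arrays and 0 above. These were the lysosomal membrane gene Laptm5, at 131.7 and 27.1 against 554.9, 347.2 and 342.1 (-2.76 ± 0.80), the leukocyte tetraspanin Cd53, at 145.3 and 376.9 against 563.8, 822.7 and 898.6 (-1.67 ± 0.47), the microglial transcription factor Sall1 (-0.54 ± 0.44) and the complement gene C1qa (-0.43 ± 0.47). A dimmer probe set of Laptm5 gave -1.97. Aif1, the microglial antigen Iba1, split the clenbuterol arrays, at 1021.6 and 222.6 against 1559.4, 1316.2 and 951.3 (-1.39 ± 0.92).

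Neutrophil markers were lower in 9 of 12 genes, with a median of -0.42 and 4 genes below all X-ray arrays. The median was -0.73 without clenbuterol 1 and -0.17 with the replicate number as a block. S100a9, a subunit of calprotectin, read 1254.8 and 514.4 against 1757.4, 2786.3 and 2335.9 (-1.49 ± 0.76). Here contusion alone, at 634.3 and 1267.3, stood with clenbuterol and not with X-ray, and the arrays without contusion had 26.4 to 440.2. Its partner S100a8 read 576.6 and 564.8 against 754.9, 924.1 and 966.3 (-0.62 ± 0.74). The chemokine receptor Cxcr2 (-0.70 ± 0.58) and the growth factor receptor Csf3r (-0.72 ± 0.83) also lay below all X-ray arrays, while the collagenase Mmp8, at 4.1 and 144.1 against 143.6, 117.5 and 279.2, overlapped. Lcn2 had the highest difference of the list. It read 436.0 and 634.8 against 161.3, 317.6 and 478.4 and overlapped (0.86 ± 0.66).

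Cytokines and chemokines as a list were balanced, at 13 higher and 17 lower of 30 and a median of -0.04. Within it 5 genes lay below all X-ray arrays. Ccl7, which draws monocytes, read 397.8 and 445.1 against 821.8, 888.2 and 1030.9 (-1.11 ± 0.54), with contusion alone at 442.1 and 363.8 beside clenbuterol and the arrays without contusion at 17.8 to 159.9. Cxcl3, which draws neutrophils, read 178.1 and 73.9 against 491.1, 402.7 and 802.2 (-2.24 ± 0.85), but its 4 dimmer probe sets gave only -0.82 to -0.01. Ccl6 differed by -1.18 ± 0.62, the interleukin-1 receptor antagonist Il1rn by -1.09 ± 0.54 and Il18 by -0.48 ± 0.64. Of the genes above all X-ray arrays, the interleukin-6 family cytokine Osm read 432.8 and 360.1 against 352.3, 252.2 and 241.1 (0.51 ± 0.70), and Tnf read 53.6 and 92.5 against 38.5, 52.9 and 47.9 (0.61 ± 0.56). Il1b (-0.07 ± 0.80) and the monocyte chemokine Ccl2, at 3630.1 and 959.1 against 2575.0, 3923.9 and 5077.0, overlapped.

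Hmox1, which breaks down heme and is strongly made by macrophages in injured cord, read 1612.5 and 1519.6 against 3038.6, 2892.6 and 2363.7 (-0.81 ± 0.45). Contusion alone, at 2058.0 and 1877.4, lay between the groups, and the arrays without contusion had 120.1 to 724.4. T, NK and B lymphocyte markers had a list level of 0.06 and -0.45 against 0.01, -0.01 and -0.12, with 10 of 21 genes higher, 1 above and 3 below all X-ray arrays. Of the T cell genes Cd3d (-1.47 ± 0.99) and Cd8a (-0.84 ± 0.56) were among those below, while Cd3e (0.07 ± 1.13) and Cd2 (0.91 ± 0.76) overlapped. The dimmer probe sets of Cd8a gave 1.02 and 0.37, so its probe sets disagreed. Erythroid genes had a level of 0.47 and 0.43 against 0.51, 0.01 and 0.70, with Hbb at 0.22 ± 0.65.

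**Figure D3:**
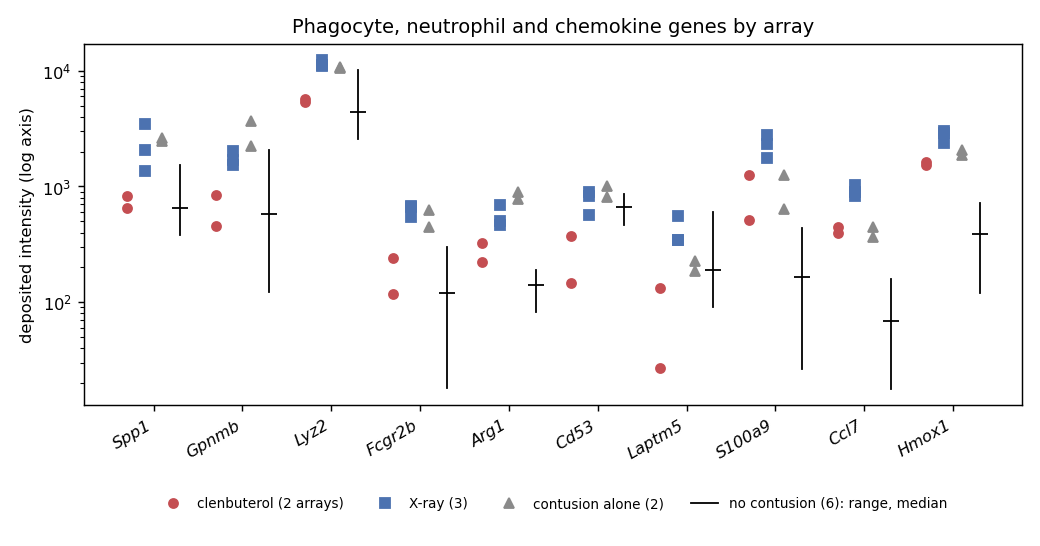
Deposited intensity (y axis, log scale) of 10 macrophage, microglia, neutrophil, chemokine and heme genes, 1 point per array, with a line from the lowest to the highest of the 6 arrays without contusion and a tick at their median. In every gene shown the clenbuterol points lie below the X-ray points; for Lyz2 they are at 5421.6 and 5692.8 against 11080.0 to 12287.2, and for S100a9 and Ccl7 they overlap the contusion points.

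Matrix remodelling genes, made by macrophages, fibroblasts and astrocytes at the lesion, were lower in 23 of 30 genes with a median of -0.22, and 8 lay below and 3 above all X-ray arrays. Without clenbuterol 2 the median was -0.53. Fn1, fibronectin, read 1265.8 and 1200.8 against 2876.5, 1664.5 and 2110.0 (-0.81 ± 0.43). The membrane protease Mmp14 read 253.4 and 318.7 against 658.4, 541.3 and 452.2 (-0.94 ± 0.45), and its other probe set gave 0.20. Also below all X-ray arrays were the collagen hydroxylase genes P4ha1 (-0.88 ± 0.58) and Plod2 (-0.71 ± 0.44) and the collagen chaperone gene Serpinh1 (-0.84 ± 0.47, with 0.72 at its other probe set). Above all X-ray arrays were the proteoglycan Bgn (0.57 ± 0.53), Thbs2 (0.91 ± 0.75) and the collagenase Mmp13 (0.96 ± 1.02). Timp1, the metalloproteinase inhibitor, split the clenbuterol arrays, at 12368.9 and 2585.9 against 6637.5, 9519.7 and 9610.6 (-0.58 ± 0.70).

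Cytosolic ribosomal protein genes were lower in 21 of 23 measured genes, with a median of -0.39 and 10 genes below all X-ray arrays. Without clenbuterol 2 the median was -0.18. Only 23 of the 40 genes on the list had a probe set with 1 symbol, and many such genes have near-identical pseudogene copies, so single members are uncertain. Rpl24 read 1848.1 and 1057.5 against 2991.9, 3016.7 and 2447.4 (-1.01 ± 0.43), Rpl6 differed by -0.50 ± 0.40, Rpl19 by -1.23 ± 0.84, and Rpl7 by -0.59 ± 0.42 with 0.80 at its other probe set. Rpl30 (0.28 ± 0.89) and Rpl28 (0.97 ± 0.74) were the higher members. The list level was 0.11 and -0.32 against 0.15, 0.32 and 0.23, so that clenbuterol 1 lay close to X-ray and clenbuterol 2 apart. Over the 6 arrays without contusion the same level ran from -1.15 to 0.85, a wider span than the gap between the treatments, and the GAPDH end ratio given above did not overlap between the groups either.

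Genes of the cells that a contusion destroys were slightly higher with clenbuterol. Myelin and oligodendrocyte genes were higher in 15 of 22 with a median of 0.24, and 5 lay above and 1 below all X-ray arrays. The median was 0.07 without X-ray 3. Ugt8, which makes the galactolipids of myelin, read 1258.4 and 1486.7 against 680.5, 643.1 and 558.1 (1.13 ± 0.40), where contusion alone had 657.9 and 490.3 and the arrays without contusion 1090.3 to 2074.2, so its clenbuterol arrays lay within the range of uncontused cord. A dim second probe set of Ugt8 gave -0.09. The myelin glycoprotein Omg read 797.2 and 3298.3 against 455.3, 701.7 and 642.2 (1.46 ± 0.65), and Tspan2 read 1418.7 and 1135.8 against 907.8, 860.9 and 850.3 (0.54 ± 0.41). The main myelin gene Mbp overlapped, at 54757.9 and 30849.0 against 36448.0, 37194.9 and 27050.4 (0.31 ± 0.57), and the enzyme Aspa, at 259.3 and 84.9 against 285.4, 276.2 and 292.1 (-0.94 ± 0.72), was the member below all X-ray arrays.

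Neuron markers were higher in 22 of 34 genes with a median of 0.24, and 8 lay above and 2 below all X-ray arrays. Without clenbuterol 2 the neuron median was 0.14, and without clenbuterol 1 it was 0.40. The synaptic vesicle gene Syp read 2782.1 and 4638.1 against 2189.1, 2775.0 and 1769.5 (0.70 ± 0.62), and Snap25, of vesicle fusion, differed by 0.45 ± 0.62. The glutamate receptor subunit Gria2 read 275.7 and 186.6 against 120.5, 83.0 and 134.2 (1.04 ± 0.50). Gad2, which makes the transmitter GABA, read 207.5 and 128.6 against 31.0, 36.8 and 103.3 (1.74 ± 0.93), with contusion alone above both, at 371.3 and 351.0. The vesicular glutamate transporter genes gave negative differences, with Slc17a7 at -1.30 ± 1.08 and Slc17a6 at -0.39 ± 0.42, both below all X-ray arrays, and the axonal neurofilament Nefl overlapped (0.21 ± 0.56).

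Astrocyte markers had a median of 0.14 and genes of reactive astrocytes -0.22, with 10 of 16 and 6 of 18 higher. Gfap, at 12424.5 and 18984.6 against 20095.2, 18399.5 and 19033.2, differed by -0.32 ± 0.42 and overlapped, as did the small heat shock protein gene Hspb1 (-0.24 ± 0.54). Markers of tissue next to the cord gave skeletal muscle genes a list level of -0.17 and 0.12 against 0.05, 0.22 and 0.00, and meningeal genes one of -0.14 and 0.07 against 0.09, 0.08 and -0.22. Both overlapped, and the muscle actin Acta1 differed by 1.34 ± 0.93.

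Glutathione, an antioxidant tripeptide, is the theme under which the submitters describe these treatments. Its 29 genes of synthesis, recycling and conjugation were higher in 18 and lower in 11, with a median of 0.10, and 4 lay above and 5 below all X-ray arrays. Gclc, the catalytic subunit of the first step of synthesis, differed by 0.22 ± 0.54 and its modifier Gclm by 0.07 ± 0.65, both with overlapping arrays. Slc7a11, the transporter that brings in cystine for synthesis, read 285.4 and 419.7 against 258.9, 161.8 and 75.7 (1.24 ± 0.68). Among enzymes that use glutathione, Mgst2 read 838.2 and 1143.3 against 540.1, 471.1 and 470.1 (0.99 ± 0.47), on either side of contusion alone at 666.2 and 613.2. The peroxidase Gpx1 went the opposite way, at 705.1 and 569.5 against 1423.2, 1371.3 and 1616.9 (-1.21 ± 0.61), with contusion alone at 749.1 and 888.7.

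The remaining lists had medians from -0.36 to 0.26. The lowest was that of pericyte and smooth muscle genes, at -0.36 with 12 of 15 lower but 1 below all X-ray arrays (-0.10 without clenbuterol 1), and the highest that of metallothioneins and metal handling, at 0.26 with 6 of 10 higher (0.07 without clenbuterol 1). Unfolded protein response genes were lower in 15 of 22 (median -0.28, or -0.10 without clenbuterol 2), with the chaperone Manf at 1309.9 and 586.4 against 1823.9, 1530.5 and 1369.0 (-0.84 ± 0.46) and the pseudokinase Trib3 at -1.90 ± 0.84. Glycolysis and hypoxia genes were lower in 16 of 25 (median -0.23, or -0.09 without clenbuterol 1), with 6 below all X-ray arrays. Of these the lactate exporter Slc16a3 differed by -1.73 ± 0.84, the enzymes Eno1 by -0.79 ± 0.53 and Pgk1 by -0.69 ± 0.44. Subunits of oxidative phosphorylation were higher in 15 and lower in 20 of 35, with 7 above and 6 below all X-ray arrays, and Atp5f1d of ATP synthase at 727.5 and 798.4 against 1203.8, 1480.2 and 2035.6 (-1.01 ± 0.50). Growth factors had 5 of 27 genes above and 4 below all X-ray arrays, with Igfbp5 at 1.32 ± 0.55, Bmp2 at 0.88 ± 0.44 (-0.78 at its dimmer probe set) and Hgf at -1.59 ± 0.66. The brightest probe set of Igfbp5 gave this value and its 4 dimmer ones -1.18 to 0.37.

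The lists can also be placed among all 22 arrays. The glucocorticoid level was 1.06 and 0.52 with clenbuterol, 0.42, -0.04 and 0.39 with X-ray, and -0.22 to 0.17 over the 11 other contused arrays. Both clenbuterol arrays were thus above every other array of the series, and X-ray 1 and X-ray 3 came next. The macrophage level of the 11 other contused arrays was -0.14 to 0.65, so that clenbuterol 2 lay below all of them and clenbuterol 1 within their lower end. For myelin the clenbuterol arrays were at 0.44 and 0.34 and the X-ray arrays at 0.23, 0.19 and -0.27, where the other contused arrays ran from -0.62 to -0.08 and the arrays without contusion from 0.23 to 0.96. Only X-ray 3 of the 5 lay within the range of the other contused arrays.

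**Figure D4:**
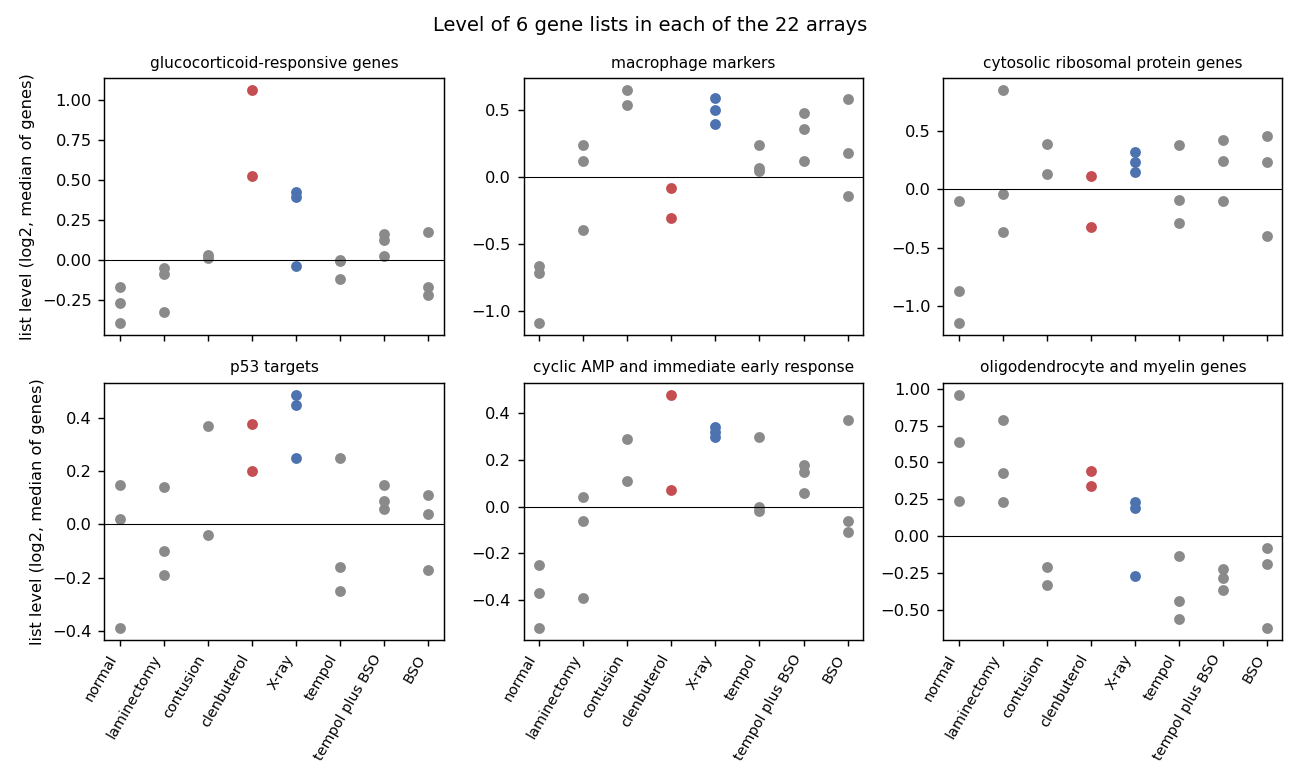
Level of 6 gene lists (y axis, median over genes of log2 intensity minus the gene's mean over 22 arrays) in the 8 groups, 1 point per array, with clenbuterol in red and X-ray in blue. Glucocorticoid-responsive genes are highest in the clenbuterol arrays (1.06 and 0.52), macrophage markers are lower there than in the X-ray arrays, and p53 targets overlap.

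Against contusion alone the treatments share the same 2 control arrays, so the values that follow are set side by side and not compared as independent results. Clenbuterol minus contusion gave 1 probe set past the threshold in limma (0.00322% of those tested), which carries no gene symbol. It was at 297.4 and 415.5 with clenbuterol against 21.3 and 15.3 in contusion alone (4.28 ± 0.56, adjusted p = 0.011), while X-ray had 256.2, 100.3 and 282.0. At an unadjusted p under 0.05 there were 1663 probe sets, where 1552.1 would be met by chance alone. The probe set past the threshold did not pass without contusion 2, without clenbuterol 1 or without clenbuterol 2. X-ray minus contusion gave 0 (0%) in limma, with a smallest adjusted p of 0.0707. It had 1492 at an unadjusted p under 0.05, fewer than the 1552.1 of chance alone. Without contusion 1, or without X-ray 2, 1 probe set passed. For these comparisons the median and the share of higher genes over all genes were not computed, so the list values below have no such reference. The glucocorticoid list had a median of 0.79 for clenbuterol and 0.38 for X-ray, with 19 and 12 of 19 genes above contusion alone. Macrophage markers had -0.55 and -0.02, neutrophil markers -0.26 and 0.23, ribosomal protein genes -0.34 and 0.06, and p53 targets 0.21 and 0.30. Cell cycle genes were below contusion alone in both, with -0.33 and -0.41, and myelin genes above it in both, with 0.55 and 0.40. Of single genes, Ccng1 was at 0.43 and 1.50, Ccl7 at 0.07 and 1.18, Lyz2 at -0.94 and 0.11, Klf9 at 0.91 and -0.46, and Per1 at 2.41 and 0.47.

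Across all genes, whether on a list or not, 12 in each direction were taken by the smallest p among probe sets with a mean intensity of at least 100 whose arrays did not overlap, so their differences are a description. The smallest adjusted p belonged to Dazap1, an RNA-binding protein, at 19.6 and 34.0 against 197.2, 239.1 and 308.3 (-3.24 ± 0.52, limma adjusted p = 0.175). Contusion alone had 218.5 and 315.4, and the arrays without contusion 84.2 to 294.7, so that the clenbuterol arrays stood alone at a low intensity. Carm1, an arginine methyltransferase of histones and RNA-binding proteins, gave 12.2 and 30.2 against 140.0, 138.0 and 98.6 (-2.69 ± 0.52, adjusted p = 0.436). The actin-binding Cotl1, expressed in leukocytes, read 113.4 and 140.9 against 339.4, 442.6 and 467.3 (-1.71 ± 0.44). The other lower genes were Dnaaf9, Pard3, Calr4, Fam117a, Crcp, Zfp111, Atp6v0a4, Xrcc3 and Cd53, with differences of all 12 from -3.24 to -1.67. In all 12 both clenbuterol arrays were below both contusion arrays, while X-ray was below them in 2 and above in 1. These genes were picked for clenbuterol values below X-ray, which by itself favors such an order. The share over all genes was not computed, so no conclusion is drawn from these counts. The brightest probe set of Pard3 gave 0.57 and that of Dnaaf9 -0.46.

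The 12 higher genes ran from 1.37 to 2.91, with adjusted p from 0.859 to 1. Ogn, a small proteoglycan of meningeal and fibroblast matrix, read 715.8 and 488.1 against 173.7, 167.1 and 144.7 (1.87 ± 0.44, limma adjusted p = 0.859), while its brightest probe set read 848.6 and 348.6 against 291.5, 469.0 and 93.3 and overlapped (1.22 ± 0.82). The microtubule-binding Mapre2 read 744.8 and 896.5 against 168.0, 199.4 and 220.6 (2.07 ± 0.61), with contusion alone between, at 458.6 and 308.3. Chst11, a sulfotransferase of chondroitin chains, read 591.7 and 1601.6 against 126.1, 165.7 and 103.3 (2.91 ± 0.86). The rest were Klf9, Creb1, Cdyl2, Fcmr, Tcerg1l, Irgq, Arih2, Cfdp1 and C1qtnf12. In 9 of the 12 all X-ray arrays lay below both contusion arrays, and in 6 of the 12 the clenbuterol arrays lay above both. The way the genes were picked favors these counts too. The brightest probe sets of Creb1 (-0.56), Arih2 (-0.50) and C1qtnf12 (-0.51) had the opposite sign.

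Finally, probe sets that mark the contusion itself were chosen without either treatment, as those that differed at an adjusted p under 0.05 in limma between the 11 other contused arrays and the 6 arrays without contusion. There were 42 higher after contusion (0.135% of those tested). Of these 30 were lower with clenbuterol than with X-ray and 12 higher (71.4% lower), the median difference was -0.34, and 11 lay below all X-ray arrays and 0 above. The shares of arrays without overlap given earlier are for genes, and none was computed for probe sets. No conclusion is therefore drawn from the counts of 11 and 0. The level of the 42 was 0.75 and 0.18 against 0.81, 0.94 and 0.97, so the groups did not overlap but clenbuterol 1 lay near X-ray 1. Without clenbuterol 1 the median was -0.85 and without clenbuterol 2 it was 0.13, so its sign rests on clenbuterol 2.

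Among their named genes, the chemokine receptor Ccr1 read 198.0 and 5.6 against 240.8, 270.4 and 307.4 (-3.03 ± 0.92), where the arrays without contusion had 6.1 to 14.5. Clenbuterol 2 was thus as low as cord without contusion. Ripk3, a kinase of necroptosis, read 60.7 and 22.2 against 216.6, 168.8 and 151.8 (-2.27 ± 0.81), and the alarmin Il33 read 768.1 and 1097.3 against 1983.3, 1586.3 and 1277.3 (-0.79 ± 0.42). The endotoxin receptor Cd14 read 617.6 and 290.2 against 757.4, 804.7 and 866.2 (-0.93 ± 0.47). These 4 were named after their values were seen.

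Of the 33 probe sets lower after contusion (0.106% of those tested) 24 were higher and 9 lower with clenbuterol, with a median of 0.22. Here 10 lay above and 1 below all X-ray arrays, again with no share over all probe sets to set beside them. Their level was 0.12 and 0.35 against -0.02, 0.17 and -0.12. Clenbuterol 1 lay within the X-ray range and clenbuterol 2 above it. The 11 other contused arrays ran from -0.90 to -0.25 and the 6 without contusion from 0.66 to 1.59, but these arrays chose the probe sets and so lie at the extremes by construction.

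**Figure D5:**
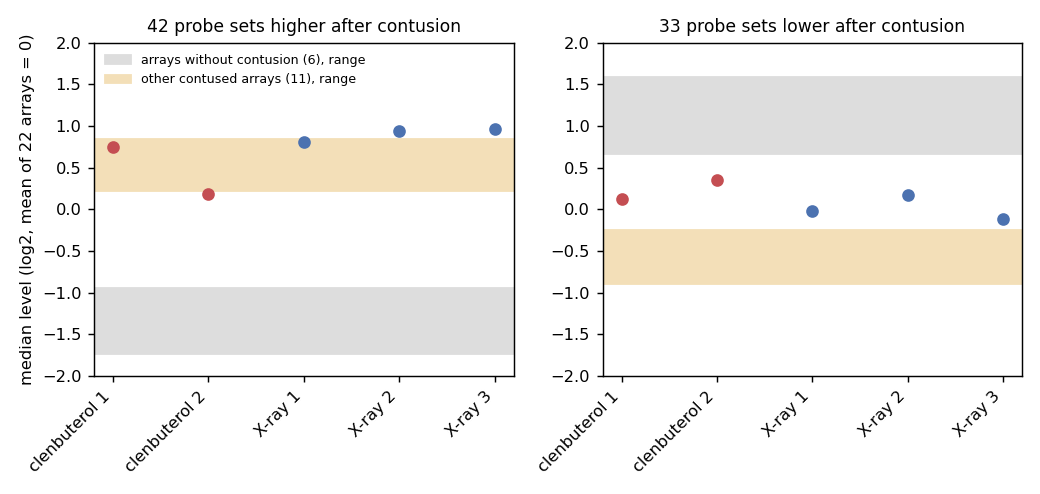
Level (y axis, median over probe sets of log2 intensity minus the mean of 22 arrays) of the 42 probe sets higher and the 33 lower after contusion, 1 point per clenbuterol (red) and X-ray (blue) array, with shaded ranges of the 11 other contused and the 6 uncontused arrays that chose them. On the left clenbuterol 2, at 0.18, lies below the X-ray arrays (0.81 to 0.97); on the right it lies above them, at 0.35.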

How the data were processed

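Gene expression in rat spinal cord was measured on Affymetrix arrays, 1 per sample. The values deposited are intensities on a linear scale, 1 for each probe set and array. RMA is named in the submitters' processing notes, but the values are not logarithmic, and each array has the same mean (250 to 250.1) once 2% is trimmed at each end, so the deposited scaling was kept and log2 was taken. Of 31099 probe sets 57 controls were left out. Symbols came from the platform table where a probe set had exactly 1 (20826; 436 had several and 9780 none), updated through Entrez numbers to RefSeq. Precision is limited by the number of arrays.

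All 22 arrays entered 1 fit of 8 group means with limma 3.58.1 in R 4.3.3 (eBayes, 14 residual degrees of freedom), two-sided, adjusted by Benjamini-Hochberg over 31042 probe sets. The fit was tested on simulated data. The 39 gene lists hold 908 genes, 799 of them measured, and some genes are in several lists. The members and lists were chosen with earlier results of these data known. Genes were named as the 12 in each direction with the smallest p, a mean intensity of at least 100 and arrays that did not overlap, up to 3 per list by smallest p, and 28 set genes (26 measured). Others, mostly list members whose arrays did not overlap, were named after their values were seen. Alternatives were quantile normalization, log2 of intensity plus 32, a filter at a mean of 100, trend and robust variances, fits of fewer arrays, array weights, the replicate number as a block, leaving out each array, and the mean of a gene's probe sets.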

Additional observations from a re-analysis of the deposited data

Results flagged for a closer look

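In some of the genes named above, all clenbuterol arrays lay on one side of both contusion arrays and all X-ray arrays on the other. The treatments share these control arrays. Most of these genes were named for their difference between the treatments, which by itself favors such an order. The difference between the treatments was tested in limma for each gene and passed in none. Higher with clenbuterol and lower with X-ray than contusion alone were Klf9 (difference 1.37), Mapre2 (2.07), Ogn at its further probe set (1.87), Pdk4 (0.95) and Mgst2 (0.99). Lower with clenbuterol and higher with X-ray were Lyz2 (-1.05), Laptm5 (-2.76), Hmox1 (-0.81), Gpx1 (-1.21), Atp6v0a4, a proton pump subunit (-2.07), and Atp5f1d (-1.01). With groups of 2 and 3 arrays no array was tested as an outlier.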

How the results depend on the processing

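No probe set passed between clenbuterol and X-ray under 8 alternatives, among them quantile normalization and the fit without laminectomy 2 and normal 1, which was chosen after seeing the data. With the filter on mean intensity 1 passed, Dazap1 (limma adjusted p = 0.0474), as fewer probe sets were tested. Leaving out each array gave 0 to 2, the lone clenbuterol array being assumed to vary like the other groups. Ccr1 differed by -5.6 without clenbuterol 1 and Mmp8 by -5.35 without clenbuterol 2. Each value rests on the 1 clenbuterol array left, which was very dim, at 5.6 for Ccr1 and 4.1 for Mmp8. The clenbuterol arrays left out read 198.0 and 144.1. The replicate numbers did not pair the arrays (correlation of deviations 0.09 for number 1 and -0.07 for number 2), and with them as a block 0 passed (smallest adjusted p = 0.561). Clenbuterol minus contusion went from 1 to 0 with log2 of intensity plus 32, the compared arrays only or contused arrays only, and from 0 to 3 when arrays were left out. X-ray minus contusion went from 0 to 1 with the filter, 2 with array weights, and 0 to 1 when arrays were left out.

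The median of cyclic AMP and immediate early genes, -0.01, became -0.04 with quantile normalization, 0.03 with the filter, -0.06 with array weights and 0.05 with the replicate block. That of DNA repair genes was 0.13 with the mean of all probe sets, and that of the probe sets higher after contusion -0.24 with the block. When arrays were left out, medians ran from -0.75 to -0.49 for macrophage markers, -0.51 to -0.18 for ribosomal protein genes, -0.48 to -0.16 for p53 targets, -0.53 to -0.16 for matrix genes, 0.14 to 0.40 for neuron markers, 0.04 to 0.33 for DNA repair, 0.02 to 0.22 for the cell cycle and 0.01 to 0.16 for beta-adrenergic genes. Among the 15 lists plotted and the contusion probe sets they changed sign for cyclic AMP genes (-0.20 to 0.47), microglia (-0.30 to 0.13), glutathione (-0.07 to 0.20), cytokines (-0.08 to 0.06) and the probe sets higher after contusion (-0.85 to 0.13). Among the other lists they changed sign for interferon (-0.32 to 0.28), lymphocyte (-0.33 to 0.13), heat shock (-0.23 to 0.27), erythroid (-0.23 to 0.15), growth factor (-0.26 to 0.04), NRF2 (-0.22 to 0.11), complement (-0.25 to 0.04), apoptosis (-0.06 to 0.31), oligodendrocyte progenitor (-0.31 to 0.07), endothelial (-0.11 to 0.23), ion channel (-0.11 to 0.06), muscle (-0.30 to 0.03), adipose (-0.10 to 0.19), ependymal (-0.07 to 0.13) and Schwann cell genes (-0.03 to 0.54). That of neutrophil markers was -0.17 with the block.

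Of 150 differences of named genes 27 changed sign under some alternative. Outside leaving out arrays these were Hbb with quantile normalization (-0.03), Nr4a1 (0 with the offset, 0.21 with the block), Ddb2 (-0.04 with the offset, -0.17 with weights, -0.01 with the block), and, with the block, Mki67 (-0.06), Nfkbia (0.03) and Glul (0.05). When arrays were left out the ranges that crossed 0 were Acta1 -0.37 to 3.05, C1qtnf12 -1.02 to 0.01, Cd163 -0.22 to 1.00, Cd3e -0.33 to 0.81, Cdkn1a -2.09 to 0.88, Cfdp1 -0.23 to 0.39, Creb1 -1.15 to 0.03, Crem -0.36 to 0.63, Ctsd -0.17 to 0.41, Ddb2 -1.12 to 1.20, Fos -0.73 to 1.16, Gclc -0.02 to 0.46, Gclm -0.15 to 0.37, Gdf15 -2.78 to 0.04, Glul -0.31 to 0.29, Hbb -0.72 to 1.17, Hspa1a -0.85 to 2.91, Hspb1 -0.56 to 0.07, Il1b -0.55 to 0.42, Mbp -0.11 to 0.72, Mki67 -0.91 to 1.15, Nefl -0.36 to 0.78, Nfkbia -0.74 to 0.66, Nr4a1 -0.75 to 0.74, Rpl30 -0.43 to 0.99, Sesn1 -0.08 to 1.36 and Timp1 -1.71 to 0.55. Except where a value above shows it, the cause was not tested.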
